A study of Mus musculus with 9 samples.

Results

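The variable (V) segments of the T cell receptor were described here across tumours of mice given PBS, Lipo-BiTE or Lipo-TriTE. The members were every entry of the deposited count table whose biotype is a T cell receptor V gene, 90 of 44806 entries. Of these, 57 lie in the alpha locus (Trav) on chromosome 14, 22 in the beta locus (Trbv) on chromosome 6, 5 are delta segments (Trdv) inside the alpha locus, and 6 are gamma segments (Trgv) on chromosome 13. In all, 53 members had at least 1 count in any library. The other 37 were at 0 in all 9 libraries and are all Trav entries.

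The tumours grew from MB49, a mouse bladder cancer cell line, which carried a HER2 overexpression in all 3 groups, the PBS controls included. Each treatment has 3 libraries, and none stands for a carrier without an engager. Bispecific T cell engagers, for which BiTE is the common abbreviation, bridge T cells and tumour cells, and the labels do not spell out what either agent binds. The series' design text names CD3+ T cells sorted from the tumours as the material, whereas the labels and the extraction protocol describe whole frozen tumour. The sources used here give no age, sex or strain of the mice and do not say whether each library stands for its own animal. The p-values below therefore rest on the spread of these libraries alone, which may be technical.

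Each T cell builds its receptor genes by joining 1 V segment to a joining (J) segment, with a diversity segment between them in the beta and delta chains, and the joined exon is spliced to a constant gene of the same chain. Most T cells carry an alpha and a beta chain, and a smaller set carries a gamma and a delta chain. The V segment forms most of the variable part of a receptor chain, and a T cell clone keeps its segments through division. A broad mixture of segments is therefore what a mixture of many clones gives, and bulk RNA shows which segments were transcribed but neither the pairing of chains nor the junctions that set a clone apart.

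The germline ends of the segments that carried most of the reads are shown first, since the text returns to them by name and since closely related copies can share reads. Each line gives the last 60 bases of the spliced transcript in GENCODE M21, on GRCm38, 5′ to 3′. Capitals mark TGTGCCAGC, which encodes the conserved cysteine and the residues after it at the start of the third complementarity-determining region in many beta chains. The search covered the transcript strand only.
Trbv13-2: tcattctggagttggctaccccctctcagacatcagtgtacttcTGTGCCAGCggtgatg
Trbv13-1: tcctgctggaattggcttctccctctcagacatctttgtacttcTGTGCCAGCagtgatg
Trbv13-3: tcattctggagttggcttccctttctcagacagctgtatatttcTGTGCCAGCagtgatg
Trbv3: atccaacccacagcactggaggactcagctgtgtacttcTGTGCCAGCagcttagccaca
Trbv14: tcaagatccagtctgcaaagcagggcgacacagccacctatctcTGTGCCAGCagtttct
Trbv1: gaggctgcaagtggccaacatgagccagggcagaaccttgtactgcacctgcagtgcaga
Trdv4: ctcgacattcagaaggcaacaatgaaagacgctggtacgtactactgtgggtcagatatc
Trgv2: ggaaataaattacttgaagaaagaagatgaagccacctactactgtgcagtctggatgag
Trav19: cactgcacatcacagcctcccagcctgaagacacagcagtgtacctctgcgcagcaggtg
Trav3n-3: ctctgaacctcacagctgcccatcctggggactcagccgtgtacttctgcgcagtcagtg

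On GRCm38 the whole transcripts of the Trbv segments shown lie on the plus strand at chr6:41121396-41121832 (Trbv13-2), chr6:41116007-41116468 (Trbv13-1), chr6:41130147-41130585 (Trbv13-3), chr6:41048290-41048828 (Trbv3), chr6:41135145-41135616 (Trbv14) and chr6:40891229-40891885 (Trbv1). Trdv4 lies at chr14:54074905-54075515, Trav19 at chr14:53845234-53845827 and Trav3n-3 at chr14:53283585-53284175, all on the plus strand, and Trgv2 lies on the minus strand at chr13:19336573-19337167. V genes are usually annotated with a leader exon and a V exon, and the bases shown come from the end of the V exon. The motif stood in the last 60 bases of 13 of 22 Trbv genes, of 0 of 108 Trav, 0 of 5 Trdv and 0 of 7 Trgv genes, which is 9.03% of all 144 V genes in that annotation. The 3 Trbv13 segments were 84.6% to 90.6% identical along their aligned transcripts, and Trbv12-1 and Trbv12-2 88.3%. Their longest shared runs were 34 to 50 bases, so reads longer than that can be told apart where they cover a difference. The sources used here state neither the read length nor the handling of reads that fit several genes, and counts within the Trbv13 and Trbv12 families are reported with that uncertainty.

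The libraries held from 13152783 to 20273548 counts. V segments took 30, 48 and 58 of them in the PBS libraries, 257, 219 and 113 in Lipo-BiTE and 1838, 845 and 1316 in Lipo-TriTE, 4724 reads in all. A total of 3 counts, the level at which a segment is called detected below, equalled 0.145 to 0.236 CPM (counts-per-million, on library totals scaled by the trimmed mean of M values, TMM), depending on the library. All intervals below cover counting error only, and reads without molecular identifiers are not independent molecules. Krt8, a keratin of epithelial and tumour cells, stood at 452 to 478 CPM in PBS, 265 to 380 in Lipo-BiTE and 158 to 294 in Lipo-TriTE, lower in both treatments than in PBS without overlap (adjusted p = 0.149 and 0.00977, edgeR).

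The level of V segments rose in the order PBS, Lipo-BiTE, Lipo-TriTE. The summed level was 2.22, 2.83 and 3.44 CPM in the PBS libraries, 20.2, 16.4 and 8.21 CPM in Lipo-BiTE and 89.0, 53.4 and 85.0 CPM in Lipo-TriTE. No library of a group overlapped a library of another. The means were 2.83 ± 0.609, 15.0 ± 6.15 and 75.8 ± 19.5 CPM (SD, n = 3 each), which makes the Lipo-TriTE mean 26.8 times that of PBS and 5.07 times that of Lipo-BiTE, and the Lipo-BiTE mean 5.29 times that of PBS. No p-value is given for a sum over the members. In bulk samples, a larger number of T cells and more receptor RNA per T cell cannot be told apart.

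Beta segments supplied 3858 of the 4724 V reads, or 81.7%. Alpha segments supplied 8.74%, delta segments 5.04% and gamma segments 4.55%. These are shares of counted reads, and the 37 entries at 0 are all Trav. In Lipo-TriTE, Trav had 2.74 to 4.57 reads per 100 reads of its constant gene. Trbv had 26.6 to 32.3 per 100 reads of its own. The shares are therefore no measure of how much RNA of each chain was present. The summed Trbv level was 0.963, 1.59 and 2.19 CPM for PBS, 14.7, 12.5 and 6.83 for Lipo-BiTE and 74.6, 42.5 and 72.6 CPM in Lipo-TriTE. The groups did not overlap, and the means were 1.58, 11.3 and 63.2 CPM. The Trbv share of V reads was 43.3%, 56.3% and 63.8% in the PBS libraries, below the 72.4% to 83.2% of Lipo-BiTE and the 79.5% to 85.3% of Lipo-TriTE.

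The Trav level was 0, 0.0589 and 0.593 CPM for PBS, 2.84, 2.25 and 0.799 for Lipo-BiTE and 8.62, 3.48 and 5.94 for Lipo-TriTE, again with no overlap between groups. For delta and gamma segments, PBS and Lipo-BiTE libraries overlapped. Reads were few there, from 1 to 20 Trdv and from 3 to 15 Trgv reads per library of these groups. Trdv stood at 0.667, 1.00 and 0.0593 CPM for PBS, 1.58, 0.826 and 0.291 for Lipo-BiTE and 3.25, 3.54 and 3.42 CPM in Lipo-TriTE. Trgv stood at 0.593, 0.177 and 0.593 CPM for PBS, 1.18, 0.901 and 0.291 for Lipo-BiTE and 2.57, 3.92 and 3.10 CPM in Lipo-TriTE. The ratio of the Lipo-BiTE to the PBS mean was 7.15 for Trbv and 9.03 for Trav but 1.56 for Trdv and 1.74 for Trgv, and whether these ratios differ between chains was not tested.

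**Figure D1:**
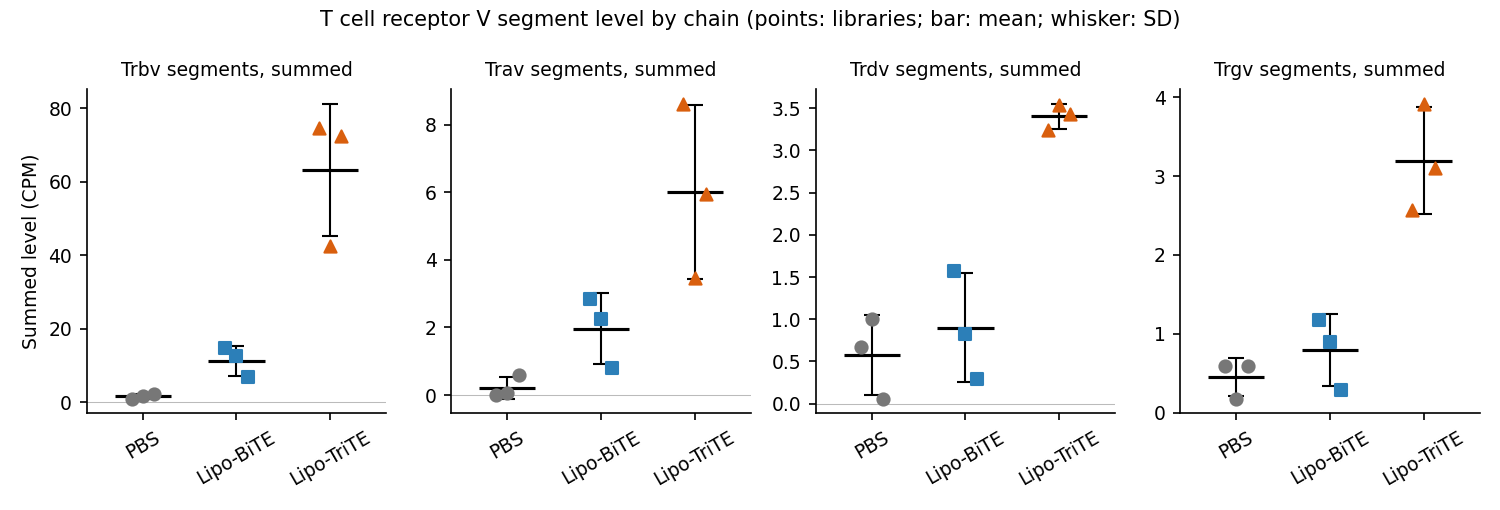
Summed level of the V segments of each chain in CPM on TMM-scaled totals (vertical axis, linear, with its own scale in each panel) for the 3 libraries of PBS, Lipo-BiTE and Lipo-TriTE; bars are means and whiskers the SD. The 3 Lipo-TriTE libraries lie above all others in each panel, while PBS and Lipo-BiTE libraries overlap for Trdv and Trgv.

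Most members of the beta locus entered the test and few others did. The filter on low counts asked for about 0.665 CPM in at least 3 libraries, and 18 of the 90 members passed it: 16 Trbv segments, Trdv4 and Trgv2. Of these 18, 17 were over that level in all 3 Lipo-TriTE libraries, 3 would have passed without the Lipo-TriTE libraries, and 17 were over it in no PBS library. A segment that entered through the Lipo-TriTE libraries had to be high there, so the counts of calls below describe the tested segments and are no support for a change of the locus. Scaling by total counts without TMM moved the median log2 fold change of all genes to -0.16 in Lipo-BiTE against PBS and to 0.11 between the treatments and turned no tested segment negative. The comparisons also share libraries: both treatments are set against the same 3 PBS libraries.

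In Lipo-TriTE against PBS, 17 of the 18 tested segments were called higher and none lower at an adjusted p under 0.05 (edgeR quasi-likelihood test), on TMM-scaled totals; of all 16596 genes tested 18.9% were called higher and 14.8% lower. Scaled by the reads of the CD3 subunits instead, 1 was called higher and 1 lower, beside 0.603% and 91.6% of all genes, and the fold changes of Trbv15 and Trdv4 turned negative. The exception on TMM-scaled totals was Trdv4, which DESeq2 called (18 of 18, beside 22% of all genes called higher and 15.3% lower). Fitted log2 fold changes of the 18 had a median of 5.01, where the median of all genes was 0.00. Segments without PBS reads have no defined ratio, and with those 3 at their lower bound the median ratio of summed counts was 28.8. Without the filter, 26 of the 53 members with a count were called higher, and none lower, beside 10.5% and 7.03% of all entries. Of the 53, 27 had all Lipo-TriTE libraries above all PBS libraries, beside 16.8% of all entries with a count.

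In Lipo-BiTE against PBS, 5 of the 18 were called higher and none lower on TMM-scaled totals, beside 13.8% of all genes called higher and 3.22% lower. DESeq2 called 12 higher, beside 16.6% and 6% of all genes. Scaled by CD3 reads, none was called higher and Trdv4 was called lower, beside 2.45% and 81.7% of all genes, and 8 of the 18 had a negative fold change. The 5 were Trbv14, Trbv3, Trbv1, Trbv2 and Trbv13-2. Without the filter 9 of 53 were called higher and none lower, beside 7.95% and 2.5% of all entries, and 11 of 53 had no overlap, beside 13.1%. Calls that 1 library decides were common here: leaving out single libraries ended the call of Trbv13-2 in 8 of 9 cases, of Trbv2 in 6 and of Trbv1 in 3 (without PBS 1, PBS 2 or Lipo-BiTE 1), and those of Trbv3 and Trbv14 in none. The number called was 2 without PBS 1 or without Lipo-BiTE 1, and 3 without PBS 3 or without Lipo-TriTE 3.

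In Lipo-TriTE against Lipo-BiTE, 6 of the 18 were called higher and none lower on TMM-scaled totals, beside 4.88% of all genes called higher and 5.21% lower. DESeq2 called 12 higher, beside 8.89% and 7.26% of all genes. Scaled by CD3 reads, Trbv17 alone was called (higher), beside 1.48% and 83.2% of all genes, and 5 of the 18 had a negative fold change. The 6 were Trbv17, Trbv14, Trbv16, Trbv13-2, Trbv19 and Trbv2. Without the filter 13 of 53 were called higher and none lower, beside 4.59% and 4.34%, and 23 of 53 had no overlap, beside 12.1%. The number called was 1 without Lipo-BiTE 2 (Trbv13-2) and 2 without Lipo-TriTE 3 (Trbv13-2 and Trbv16).

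Trbv13-2, the first Trbv segment in level per length in PBS and Lipo-TriTE, was the only member detected in all 9 libraries. It had 5, 4 and 5 counts in PBS, 13, 10 and 17 in Lipo-BiTE and 220, 64 and 151 in Lipo-TriTE. The 3 groups did not overlap. Its PBS mean was 0.301 ± 0.0675 CPM, its Lipo-BiTE mean 1.00 ± 0.243 and its Lipo-TriTE mean 8.15 ± 3.59 CPM (SD, n = 3). The change from PBS was 26.7-fold in Lipo-TriTE (log2 4.74, SE 0.51, adjusted p = 0.000108, edgeR) and 3.31-fold in Lipo-BiTE (log2 1.73, SE 0.53, adjusted p = 0.0452). Lipo-TriTE exceeded Lipo-BiTE 8.08-fold (adjusted p = 0.00458).

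Trbv3 had 2, 2 and 5 counts in PBS, 30, 59 and 16 in Lipo-BiTE and 209, 54 and 118 in Lipo-TriTE. Both treated groups lay above PBS, while Lipo-BiTE 2 lay within the Lipo-TriTE range on the CPM scale. The change from PBS was 13.5-fold in Lipo-BiTE (log2 3.75, SE 0.69, adjusted p = 0.00383, edgeR) and 35.9-fold in Lipo-TriTE (log2 5.16, SE 0.69, adjusted p = 0.000371). The difference between the treatments, 2.66-fold, did not pass the test (adjusted p = 0.121), and scaled by CD3 reads it was -0.75 on the log2 scale. Trbv3 was the called segment with the smallest adjusted p in Lipo-BiTE against PBS.

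Trbv1 had 0, 0 and 5 counts in PBS, 30, 6 and 13 in Lipo-BiTE and 128, 84 and 91 in Lipo-TriTE. All of its PBS reads came from PBS 3. It stood 11.2-fold above PBS in Lipo-BiTE (adjusted p = 0.0289, edgeR) and 51.8-fold in Lipo-TriTE (adjusted p = 0.00116). Its level was even across the Lipo-TriTE libraries, at 5.80 ± 0.452 CPM.

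Trbv2 had counts in 1 PBS library only, with 0, 3 and 0 in PBS, 19, 7 and 3 in Lipo-BiTE and 95, 71 and 80 in Lipo-TriTE. Against 3 PBS reads in all, the ratio of summed counts per total was 11.5 for Lipo-BiTE (exact 95% interval 3.56 to 59.0) and 74.7 for Lipo-TriTE (25.3 to 365). The edgeR test gave adjusted p values of 0.0404 and 0.000953, and 0.0429 between the treatments at 6.36-fold. The last call was lost in 5 of 9 leave-outs (Lipo-BiTE 2, Lipo-BiTE 3 or any Lipo-TriTE library, adjusted p up to 0.152) and with a replicate block.

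Trbv14, Trbv26 and Trbv29 had no read in any PBS library. Trbv14 had 4, 3 and 5 counts in Lipo-BiTE and 51, 54 and 50 in Lipo-TriTE. Taking 3 counts over the PBS group as the floor, it was at least 4.76-fold higher in Lipo-BiTE and at least 47.1-fold higher in Lipo-TriTE (adjusted p = 0.012 and 0.000305, edgeR). Between the treatments it differed 9.85-fold (adjusted p = 0.0134; the call is lost without Lipo-BiTE 2, or without Lipo-TriTE 3). Its level in Lipo-BiTE was 0.301 ± 0.07 CPM.

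Trbv29 had 5, 0 and 4 counts in Lipo-BiTE and 33, 28 and 31 in Lipo-TriTE, and Trbv26 had 6, 0 and 0 and then 32, 23 and 35. Both were called in Lipo-TriTE against PBS (at least 27.9-fold and at least 27.3-fold higher, adjusted p = 0.00345 and 0.00807, edgeR). Neither passed in Lipo-BiTE, where the adjusted p values were 0.0744 and 0.175. Trbv20, with 1 read in PBS, had 6, 9 and 0 counts in Lipo-BiTE and 65, 19 and 57 in Lipo-TriTE. Its ratio of Lipo-TriTE to PBS counts was 128 with an exact 95% interval from 22.7 to 5109, which shows how little the single PBS read fixes the size of the change (adjusted p = 0.00308, edgeR).

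Trbv17 was the segment with the largest called difference between the treatments. It had 0, 0 and 3 counts in PBS, 2, 0 and 2 in Lipo-BiTE and 68, 28 and 56 in Lipo-TriTE. The PBS and Lipo-BiTE libraries overlapped, and all Lipo-TriTE libraries lay above both. Lipo-TriTE stood 26.7-fold above Lipo-BiTE (log2 4.74, SE 1.00, adjusted p = 0.0164, edgeR; 29.1 as a ratio of counts, exact 95% interval 11.1 to 108). The call was lost without Lipo-BiTE 2 or without Lipo-TriTE 3. Against PBS the Lipo-TriTE ratio of counts was 46.2 (15.5 to 226, adjusted p = 0.00288).

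Trbv16, Trbv19 and Trbv12-2 were called in Lipo-TriTE against PBS but not in Lipo-BiTE against PBS (adjusted p = 0.149, 0.0941 and 0.114, edgeR). Trbv16 had 0, 5 and 4 counts in PBS, 13, 5 and 7 in Lipo-BiTE and 162, 55 and 80 in Lipo-TriTE. Lipo-TriTE exceeded PBS 28.5-fold and Lipo-BiTE 8.61-fold (adjusted p = 0.000778 and 0.0159, edgeR), and the latter call was lost without Lipo-BiTE 2 or without Lipo-TriTE 1.

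Trbv19 had 0, 2 and 5 counts in PBS, 11, 7 and 6 in Lipo-BiTE and 79, 58 and 88 in Lipo-TriTE. Lipo-TriTE exceeded PBS 28.8-fold and Lipo-BiTE 7.16-fold (adjusted p = 0.000709 and 0.0197, edgeR), and the latter call was lost without Lipo-BiTE 2, Lipo-BiTE 3 or Lipo-TriTE 3. Trbv12-2 had 0, 6 and 3 counts in PBS, 20, 11 and 3 in Lipo-BiTE and 146, 48 and 81 in Lipo-TriTE. It rose 26.5-fold in Lipo-TriTE over PBS (adjusted p = 0.00207, edgeR) and lay just outside the threshold between the treatments (5.87-fold, adjusted p = 0.0509).

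Of the other Trbv segments, Trbv12-1, Trbv13-1, Trbv13-3 and Trbv15 were called in Lipo-TriTE against PBS only, at adjusted p values from 0.00363 to 0.0152 (edgeR); whether their changes differ between comparisons was not tested. Trbv13-1 had 51, 2 and 48 counts in Lipo-TriTE, so that Lipo-TriTE 2 stood far below the other libraries of its group. Trbv31 did not pass the filter and had 16, 6 and 47 counts in Lipo-TriTE against 0, 0 and 1 in PBS. Trbv23, Trbv4, Trbv30, Trbv5 and Trbv21 had at most 9 counts in any library. The models of Trbv4 and Trbv5 overlap the model 5830405F06Rik. All 22 Trbv segments had a read in at least 1 Lipo-TriTE library, 19 in Lipo-BiTE and 15 in PBS.

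**Figure D2:**
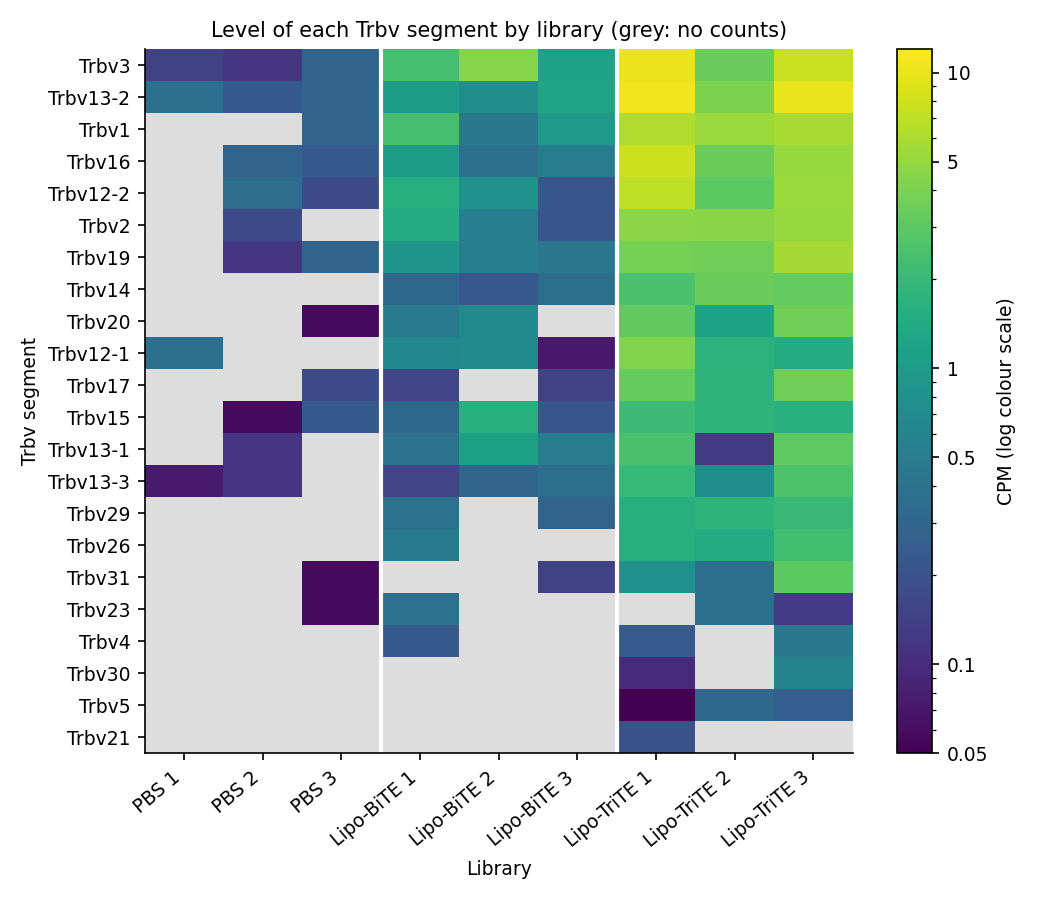
Level of each of the 22 Trbv segments (rows, ordered by mean over all libraries) in each of the 9 libraries (columns), in CPM on TMM-scaled totals on a logarithmic colour scale, with grey where a segment had no counts. The grey area shrinks from the PBS to the Lipo-TriTE columns: 7 segments had no read in any PBS library, 3 none in Lipo-BiTE and 0 none in Lipo-TriTE.

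Levels of different segments were compared per length of the gene model. In Lipo-TriTE, Trbv13-2 came first at 24.0 ± 10.5 CPM per kb, followed by Trbv3 (15.5 ± 7.45), Trbv1 (13.9 ± 1.08), Trbv16 (13.8 ± 5.54) and Trbv12-2 (13.3 ± 5.25). Each segment in that order overlapped the next in its range over the 3 libraries, so no 2 neighbours differed beyond their spread. The ends of the order were separate: the lowest of those 5 was at least 7.50 CPM per kb in any Lipo-TriTE library, and Trbv30, Trbv4, Trbv5, Trbv23 and Trbv21 stayed at or below 1.74 CPM per kb. In PBS Trbv13-2 was also first, at 0.885 ± 0.198 CPM per kb, and 7 of 22 segments were at 0. In Lipo-BiTE the order differed, with Trbv3 first at 5.83 ± 3.63 CPM per kb, then Trbv1 (3.00 ± 2.38) and Trbv13-2 (2.95 ± 0.713), whose ranges overlapped.

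The share of each segment within its chain describes usage independently of the total. Trbv3 took 16.1%, 35.5% and 17.0% of Trbv reads in Lipo-BiTE, and 13.6%, 8.04% and 10.5% in Lipo-TriTE. The 35.5% in Lipo-BiTE 2 (59 of 166 reads, Wilson 95% interval 28.7% to 43.1%) was the highest Trbv share in any library with at least 30 Trbv reads. Its shares in Lipo-BiTE all lay above those in Lipo-TriTE and in PBS, which were 7.41% to 15.4%. Trbv17 took 0% to 2.13% in Lipo-BiTE and 4.17% to 4.99% in Lipo-TriTE, without overlap. Of the 22 Trbv shares, only those of Trbv3, Trbv17 and Trbv5 did not overlap between the treatments, Trbv5 with 0% against 0.0649% to 0.744%. Trbv5 had only 1, 5 and 4 reads in Lipo-TriTE. Its 0 of 446 pooled Lipo-BiTE Trbv reads leaves a share of up to 0.854% (Wilson 95% bound), so depth alone can give this separation. In a list of 22 shares no test of single ones was made.

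The segment with the largest share differed between libraries. It was Trbv13-2 in Lipo-TriTE 1 (14.3%) and 3 (13.4%), Trbv1 in Lipo-TriTE 2 (12.5%), Trbv3 in Lipo-BiTE 2, and Trbv13-2 in Lipo-BiTE 3 (18.1%). In Lipo-BiTE 1, Trbv1 and Trbv3 were level with 30 reads each (16.1%). As a description over the 22 segments, which share library depth and the same gene models, Pearson correlations of Trbv shares ran from 0.777 to 0.916 between Lipo-TriTE libraries, from 0.599 to 0.702 between Lipo-BiTE libraries and from 0.175 to 0.459 between PBS libraries, whose Trbv reads numbered 13, 27 and 37. Between a Lipo-BiTE and a Lipo-TriTE library they ran from 0.313 to 0.849.

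**Figure D3:**
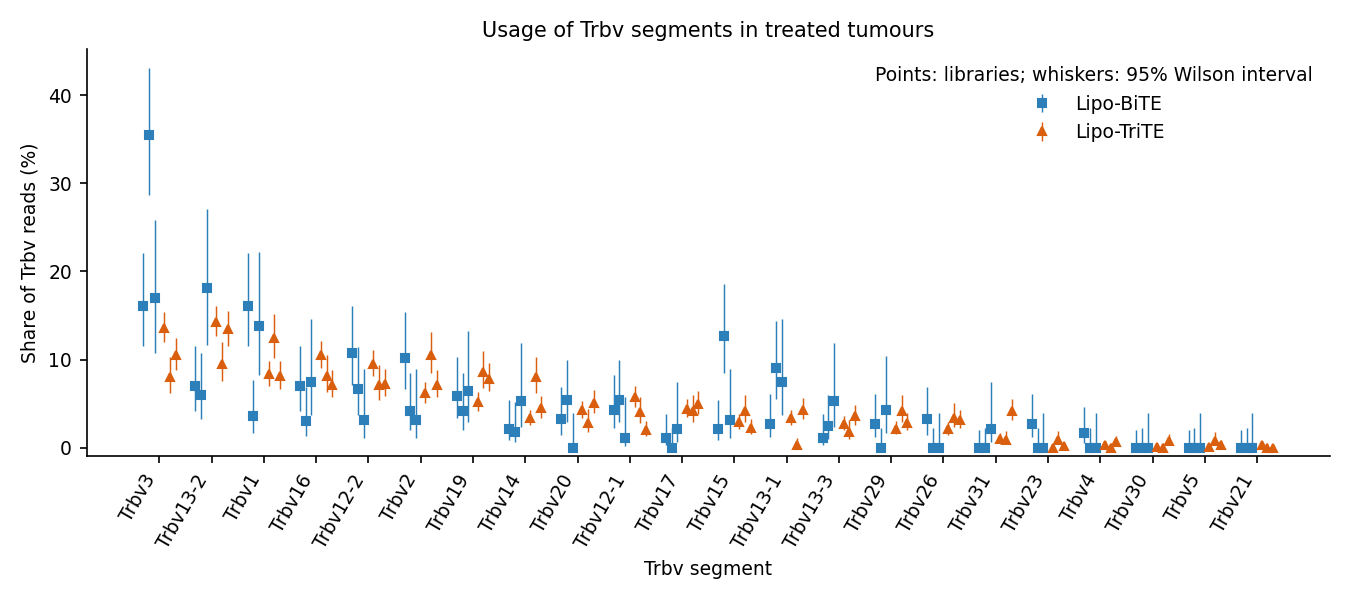
Share of each Trbv segment in all Trbv reads of a library, in percent, for the 3 Lipo-BiTE and the 3 Lipo-TriTE libraries; whiskers are Wilson 95% intervals, which cover counting error only. Trbv3 in Lipo-BiTE 2 stands highest at 35.5%, and the highest share in a Lipo-TriTE library is the 14.3% of Trbv13-2.

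More segments were detected where more V reads were present. At least 3 counts were found for 5, 6 and 11 segments in PBS, 25, 22 and 13 in Lipo-BiTE and 39, 33 and 36 in Lipo-TriTE, and the groups did not overlap. Reduced to the 30 V reads of the smallest library, the expected numbers with a read were 7.00, 10.6 and 13.6 in PBS, 16.4, 13.97 and 15.4 in Lipo-BiTE and 15.9, 16.3 and 16.3 in Lipo-TriTE. At equal depth the treated groups thus overlapped each other, and both lay above PBS, by as little as 13.6 in PBS 3 against 13.97 in Lipo-BiTE 2. For Trbv alone, at 13 reads, the expected numbers were 4.00, 7.23 and 7.82 in PBS, 8.22, 6.90 and 7.93 in Lipo-BiTE and 8.399, 8.59 and 8.86 in Lipo-TriTE, where PBS and Lipo-BiTE overlapped.

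**Figure D4:**
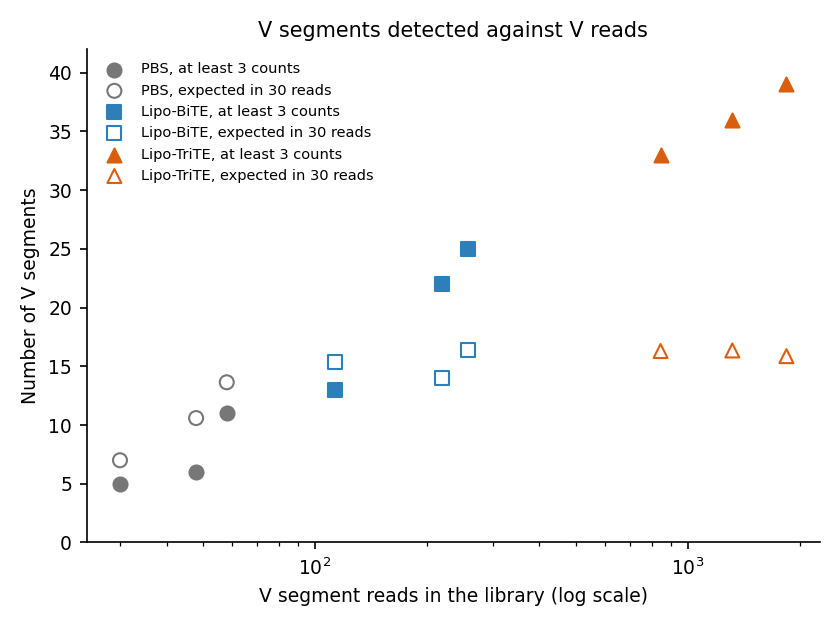
Number of V segments (vertical axis) against V reads in the library (horizontal axis, logarithmic). Filled symbols count segments with at least 3 counts and rise from 5 to 39; open symbols give the number expected with a read among 30 V reads and lie between 13.97 and 16.4 in the 6 treated libraries.

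Evenness describes how equally reads fall on the segments that have any, and is 1 when all are equal. Pielou's index was 0.915, 0.848 and 0.927 in PBS, 0.872, 0.870 and 0.881 in Lipo-BiTE and 0.819, 0.881 and 0.856 in Lipo-TriTE. All 3 groups overlapped. Taken over all 53 segments with a count in any library, which also counts segments without reads against a library, the index was 0.449 to 0.661 in PBS, 0.677 to 0.781 in Lipo-BiTE and 0.785 to 0.795 in Lipo-TriTE, so that no groups overlapped and the order of the means turned. The inverse Simpson index, the number of equally used segments that would give the same concentration, was 5.29, 5.73 and 12.1 in PBS, 16.6, 9.34 and 12.9 in Lipo-BiTE and 16.4, 18.5 and 18.3 in Lipo-TriTE. Lipo-TriTE lay above PBS, and Lipo-BiTE overlapped both. For Trbv alone it was 10.5, 5.85 and 9.30 in Lipo-BiTE and 11.9, 12.9 and 13.9 in Lipo-TriTE, without overlap, and 3.07, 7.08 and 8.95 in PBS on 13 to 37 reads. The low value of Lipo-BiTE 2 is the library in which Trbv3 held 35.5% of the reads.

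Alpha segments were sparse and none passed the filter. They supplied 413 reads in all, 11 of them in PBS, while the constant gene of the chain, Trac, had 40 to 124 counts in the PBS libraries and 2010 to 4477 in Lipo-TriTE. The unnamed Trav entry MGP_C57BL6NJ_G0002636 had the most reads, with 0 counts in PBS, 1, 3 and 2 in Lipo-BiTE and 34, 13 and 4 in Lipo-TriTE. Trav19 followed with 0 in PBS, 3, 0 and 2 in Lipo-BiTE and 14, 4 and 22 in Lipo-TriTE. Fits without the filter called 7 of the 20 Trav entries with a count higher in Lipo-TriTE against PBS, beside 10.5% of all entries, namely these 2 with Trav17, Trav21-dv12, Trav3-1, Trav5-1 and Trav6-2, and none of the 20 in the other comparisons, where 7.95% (Lipo-BiTE against PBS) and 4.59% of all entries were called higher.

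Single libraries held much of some alpha segments. Trav23 had 9 of its counts in PBS 3 and none in PBS 1 and 2, 3, 12 and 0 in Lipo-BiTE and 17, 0 and 0 in Lipo-TriTE. Its 12 of 30 Trav reads in Lipo-BiTE 2, 40% (Wilson 95% interval 24.6% to 57.7%), were the highest Trav share in a library with at least 30 such reads. Trav6-2 had 12, 0 and 2 counts in Lipo-BiTE and 18, 5 and 0 in Lipo-TriTE, and none in PBS. Trav1, the segment used by mucosal-associated invariant T cells, had 3, 0 and 2 counts in Lipo-BiTE and 0 in the other 6 libraries. Trav11d, a copy of the segment used by invariant natural killer T cells, had no count in any library. In the reference its sequence is shared in full with Trav11, and its model in the table overlaps another V model. This 0 is therefore not a measurement of its transcription.

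Many Trav entries at 0 share sequence with another V gene. The mouse alpha locus holds repeated blocks, whose segments carry the letters d and n in their names. Of 31 named Trav members found in the reference by name, 15 were at 0 in all libraries and 16 had a count. The other 22 entries at 0 have no name and were not looked up. Among the 15, 12 shared a run of at least 100 bases with another V gene, 7 of them over their whole length, and the median longest shared run was 276 bases. Among the 16 with a count, 4 shared such a run, none over the whole length, and the median was 68 bases. Trav3n-3, whose end is printed above, is shared over all of its 427 bases with Trav3d-3, and both were at 0. In the count table, however, their models overlap on the same stretch of chromosome 14 (49992609-49993194 and 49992617-49993194). The models of Trav7-2 and Trav7d-2 overlap there in the same way. Trav19, with counts, shared at most 15 bases with any other V gene. No Trbv gene shared a run of 100 bases, and their median was 17.5. Since the treatment of reads that match several genes is not stated, a 0 for a duplicated Trav entry is not a measurement of its transcription. Of 57 Trav models, 25 overlapped another V model in position and 23 of those were at 0, as were 14 of the 32 others.

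Trdv4 supplied most delta reads, from 63.6% of them in Lipo-BiTE 2 to 100% in PBS and Lipo-BiTE 1. Trdv4, a delta segment known from gamma delta T cells of epithelia, had 9, 17 and 1 counts in PBS, 20, 7 and 3 in Lipo-BiTE and 50, 44 and 46 in Lipo-TriTE. All Lipo-TriTE libraries lay above all others, and PBS and Lipo-BiTE overlapped. Lipo-TriTE stood 4.70-fold above PBS (log2 2.23, SE 0.83), which missed the threshold at an adjusted p of 0.061 (edgeR). It passed with DESeq2, without the filter, with only the 6 libraries compared, and without Lipo-BiTE 1 or Lipo-BiTE 3 (adjusted p down to 0.044 in these leave-outs). It was 74.6%, 78.6% and 86.8% of Trdv reads in Lipo-TriTE. Its gene model overlaps that of an antisense gene, Gm42877, and whether the counting used strand is not stated, so reads of both cannot be told apart.

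Of the other delta segments, Trdv5 had 0, 4 and 0 counts in Lipo-BiTE and 3, 0 and 7 in Lipo-TriTE, Trdv2-2 11, 4 and 0 and Trdv1 3, 8 and 0 in Lipo-TriTE. Trdv2-1 had 1 count in all. None of these 4 had a read in PBS. In the PBS group, delta reads formed 30%, 35.4% and 1.72% of the V reads, against 3.54% to 7.78% in Lipo-BiTE and 3.65% to 6.63% in Lipo-TriTE, so that 2 of the 3 PBS libraries lay far above the treated ones and the third below them.

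Among gamma segments Trgv2 led. It had 0, 3 and 0 counts in PBS, 9, 12 and 2 in Lipo-BiTE and 34, 25 and 27 in Lipo-TriTE. The Lipo-TriTE libraries lay above all others, at 1.66 ± 0.0828 CPM. Against 3 PBS reads the ratio of Lipo-TriTE counts was 26.1 (exact 95% interval 8.64 to 129, adjusted p = 0.0073, edgeR). Lipo-BiTE against PBS did not pass (fitted log2 3.07, adjusted p = 0.0776, edgeR). The tested Trbv segments had a median fitted log2 fold change of 3.04 in that comparison. It held 64.2%, 40.3% and 56.3% of Trgv reads in Lipo-TriTE.

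The other gamma segments, several of them known from gamma delta T cells of skin and mucosa, had few reads. Tcrg-V6 had 5, 0 and 5 counts in PBS, 3, 0 and 0 in Lipo-BiTE and 0, 16 and 5 in Lipo-TriTE, and Tcrg-V4 3, 0 and 0, then none, then 9, 16 and 5. Tcrg-V6 thus led the Trgv reads of PBS 1, with 5 of 8, and of PBS 3, with 5 of 10. Gm16602 had 0, 0 and 1, then 2, 0 and 2, then 10, 5 and 6. Tcrg-V5 was seen in PBS 3 with 4 counts and Lipo-TriTE 3 with 5, and Tcrg-V7 in Lipo-BiTE 1 with 1. Tcrg-V4, Tcrg-V5, Tcrg-V6 and Tcrg-V7 overlap the antisense model Gm43385, which itself had no count in any library. Trdv2-1 and Trdv2-2 overlap the antisense gene Gm43647, and Trdv5 overlaps Trdc.

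Constant genes are spliced to whichever V segment a cell has joined, and those of the alpha and beta chains moved with the V segments. Trac rose 3.08 on the log2 scale in Lipo-BiTE and 4.96 in Lipo-TriTE over PBS, Trbc1 2.84 and 5.16, and Trbc2 3.30 and 5.76 (adjusted p from 5.63e-06 to 0.00077, edgeR). Trdc, the delta constant gene, differed by -0.70 in Lipo-BiTE (adjusted p = 0.407) and rose 1.87 in Lipo-TriTE (adjusted p = 0.0189, lost without PBS 2, PBS 3 or Lipo-TriTE 1). The gamma constant gene in the table, Tcrg-C4, rose 2.75 in Lipo-TriTE (adjusted p = 0.0202, lost without PBS 2 or Lipo-TriTE 1) and differed by 1.36 in Lipo-BiTE (adjusted p = 0.26).

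Set against the constant reads of the same chain, beta segments overlapped between all groups. Trbv reads per 100 reads of Trbc1 and Trbc2 were 18.8, 26.7 and 60.7 in PBS, 26.6, 31.0 and 23.6 in Lipo-BiTE and 27.6, 26.6 and 32.3 in Lipo-TriTE. Trav reads per 100 Trac reads were 0, 0.806 and 12.2 in PBS, 4.77, 5.93 and 2.55 in Lipo-BiTE and 3.98, 2.74 and 4.57 in Lipo-TriTE. Trdv reads per 100 Trdc reads were 14.1, 60.7 and 5.26 in PBS, 80.0, 45.8 and 36.4 in Lipo-BiTE and 27.9, 51.9 and 39.3 in Lipo-TriTE. All groups overlapped in each of these ratios.

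**Figure D5:**
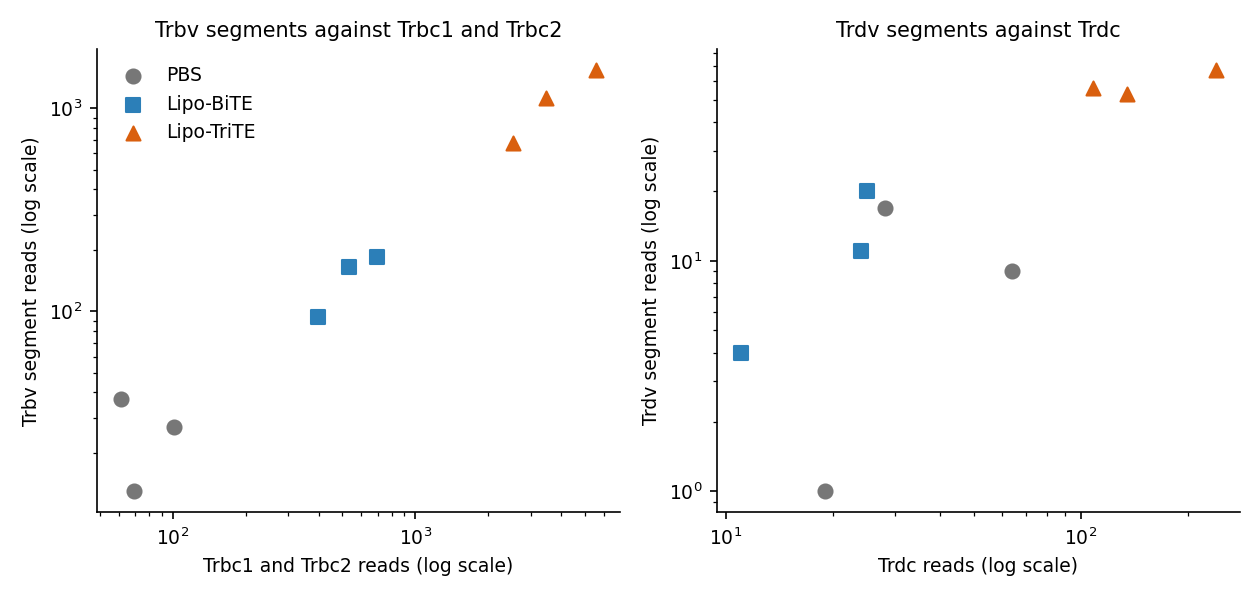
Reads of Trbv segments against reads of Trbc1 and Trbc2 (left) and of Trdv segments against Trdc (right) in each of the 9 libraries, both axes logarithmic. In the left panel the groups follow each other from the 13 to 37 Trbv reads of PBS to the 672 to 1540 of Lipo-TriTE, and in the right panel PBS and Lipo-BiTE libraries are mixed.

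The CD3 subunits, which carry the receptor to the surface, gave a like reference. V reads per 100 reads of Cd3d, Cd3e, Cd3g and Cd247 were 11.5, 17.3 and 22.7 in PBS, 18.2, 19.5 and 14.2 in Lipo-BiTE and 18.5, 18.6 and 25.5 in Lipo-TriTE, and the groups overlapped. Trbv reads alone, per 100 CD3 reads, were 5, 9.75 and 14.5 in PBS, 13.1, 14.8 and 11.9 in Lipo-BiTE and 15.5, 14.8 and 21.8 in Lipo-TriTE. On this measure all Lipo-TriTE libraries lay above the other groups, by a narrow margin over Lipo-BiTE 2 (14.78 against 14.81), and PBS and Lipo-BiTE overlapped. With libraries scaled by these CD3 reads, the median log2 fold change of all genes moved to -2.26 in Lipo-BiTE and -4.38 in Lipo-TriTE against PBS, and to -2.16 between the treatments. On that scale Trdv4 fell by 2.01 in Lipo-BiTE (adjusted p = 0.0397, edgeR) and by 2.09 in Lipo-TriTE (adjusted p = 0.0246) against PBS, as did Trdc by 2.98 and 2.5. Trbv14 was called higher in Lipo-TriTE against PBS (adjusted p = 0.0179), where its fitted size depends on the 0 in PBS, and Trbv17 was called higher in Lipo-TriTE against Lipo-BiTE (log2 2.64, SE 1.24, adjusted p = 0.0398). On this scale 81.7%, 91.6% and 83.2% of all genes were called lower in the 3 comparisons. The adjustment over all genes is therefore weak, and these adjusted p values lie near unadjusted ones. In each comparison 16 or 17 of the 18 tested segments were not called relative to CD3, which does not show that they moved alike.

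Other genes of receptor assembly were counted from lists. Of 17 names of the receptor complex, 13 were in the table and 12 were tested: 10 were called higher in Lipo-BiTE and 12 in Lipo-TriTE against PBS, and 11 between the treatments, with median log2 fold changes of 2.52, 4.64 and 2.24 beside -0.02, 0.00 and -0.01 over all genes. Of 69 J segments, 12 were tested, and 7, 10 and 0 were called higher, beside 13.8%, 18.9% and 4.88% of all genes. Of 9 tested genes of V(D)J recombination, 1 was called higher and 2 lower in Lipo-BiTE, 2 and 1 in Lipo-TriTE, and 2 and 0 between the treatments, with 3.22%, 14.8% and 5.21% of all genes called lower; the counts of 1 or 2 higher lie near the shares of all genes called higher against PBS. Rag1, a subunit of the recombinase that cuts V segments, had no read in PBS or Lipo-BiTE and 40 in Lipo-TriTE. Dntt, which adds bases at the junctions in immature lymphocytes, had 11, 12 and 10 counts in PBS, 16, 7 and 15 in Lipo-BiTE and 210, 169 and 196 in Lipo-TriTE, and was called higher there (log2 3.98 against PBS).

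Marker lists of T cells and other cells did not all follow the V segments, and their part in the V segment changes was not tested. The epithelial list summed lower in both treatments than in PBS, and the macrophage list summed lower in Lipo-TriTE than in Lipo-BiTE. Of all genes, 13.8% were called higher in Lipo-BiTE and 18.9% in Lipo-TriTE over PBS, and 4.88% between the treatments. The shares called lower were 3.22%, 14.8% and 5.21%. Whether the counts in these short lists differ from such shares was not tested. The 12 T cell markers summed to 57.1 to 79.3 CPM for PBS, 296 to 565 for Lipo-BiTE and 1173 to 2120 for Lipo-TriTE. Of these, 12 of 12 were called higher in each comparison. The 9 B cell markers summed to 8.78 to 11.5, 14.3 to 32.1 and 481 to 1368 CPM, with 1, 9 and 9 of 9 called higher. The 1 of 9 in Lipo-BiTE against PBS lies near the 13.8% of all genes called higher there. V segments of immunoglobulin, the B cell receptor, summed to 3.14 to 4.15, 3.05 to 6.77 and 199 to 781 CPM. The thymocyte list, of which Dntt alone was tested, summed to 0.712 to 0.884, 0.526 to 1.81 and 11.9 to 13.8 CPM. Of the 5 gamma delta T cell names in the table, which include the B cell gene Blk, 0, 3 and 4 were called higher. The natural killer cell markers, summing to 13.3 to 14.6, 32.2 to 54.6 and 60.4 to 80.7 CPM, were called higher in 4 of 4 in both treatments against PBS and in 1 between them. Of 3 tested invariant natural killer T cell names, 2, 3 and 2 were called higher. That list, which shares Klrb1c with the natural killer cell list, summed to 3.26 to 4.24, 10.9 to 22.0 and 57.5 to 113 CPM. Slamf6 made up most of the sum in Lipo-TriTE, with means of 1.42, 7.85 and 60.5 CPM in PBS, Lipo-BiTE and Lipo-TriTE. Zbtb16, the untested name, was near the floor and lower in Lipo-TriTE than in Lipo-BiTE, with means of 0.0394, 0.584 and 0.281 CPM. The list is therefore no measure of these cells. The epithelial tumour cell markers summed to 897 to 971, 566 to 822 and 345 to 641 CPM, and 0, 2 and 0 of 4 were called lower. Macrophage markers were called higher in 6 of 6 in both treatments against PBS and in 0 of 6 between them. They summed to 74.9 to 106, 536 to 1270 and 383 to 522 CPM. Of 4 tested plasma cell names, 1, 3 and 2 were called higher and 1, 1 and 0 lower. That list summed to 391 to 415, 500 to 1197 and 767 to 902 CPM.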

How the data were processed

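RNA from 9 tumour samples was analysed from one table of gene counts. The table the authors deposited holds raw counts of reads for each gene, with no normalization that its header names. Per the labels' protocols, mRNA was fragmented and copied with random primers; the sources used here do not state strand, aligner, counter or build. Identifiers name C57BL/6NJ gene models. Count columns named untreated were taken as the PBS libraries, an inference from the labels.

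Counts were fitted in R 4.3.3 with edgeR 4.0.16 (filterByExpr, TMM, robust quasi-likelihood F test, 1 mean per group over all 9 libraries, 6 residual degrees of freedom), with Benjamini-Hochberg adjustment over 16596 genes and calls at 0.05. DESeq2 1.42.0, other scalings and filters, a replicate block and leaving out each library were alternatives. Ratios against 1 to 3 counts are of summed counts per summed total; against 0 counts the floor was 3 counts over the group. Sums, shares, numbers detected and evenness carry no test.

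Segments named with values were the up to 6 highest per locus, the up to 5 largest calls per comparison without overlap, the highest share per locus, and a fixed panel; Trbv12-1, Trbv13-1, Trbv13-3, Trbv15 and Trbv31, and other low segments, were added after their values were seen. Members, lists and rules were chosen with earlier results of these data known. Tcrg-C4 stands for the gamma constant genes because the table holds that name. Sequences are from GENCODE M21 (GRCm38), matched by name for 63 members, of which 48 had the table's length; its coordinates are not those of the table.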

Additional observations from a re-analysis of the deposited data

How the results depend on the processing

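The number of V segments called higher was 5 in Lipo-BiTE against PBS, 17 in Lipo-TriTE against PBS and 6 in Lipo-TriTE against Lipo-BiTE. With CD3-scaled libraries it was 0, 1 and 1, with 1, 1 and 0 called lower. Without the filter it was 9, 26 and 13 over more segments, with DESeq2 12, 18 and 12, and with only the 6 libraries compared 1, 17 and 9; in that first fit only 2 segments were tested. Leaving out each library gave 2 to 7, 16 to 21 and 1 to 9. Total counts and a filter of 1 CPM in 3 libraries kept the counts within 1.5 times.

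The labels do not say whether replicate numbers pair the samples. Deviations of same-numbered libraries correlated at -0.194 to 0.0755 over 9 pairs, beside -0.169 to 0.239 for unlike numbers. With 3 libraries per group this cannot settle it. A fit with the number as a replicate block called 3, 17 and 5.

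With CD3-scaled libraries the log2 fold changes of these segments named by rule turned: in Lipo-BiTE against PBS, Trbv12-2 to -0.25, Trbv13-2 to -0.45, Trbv16 to -0.59, Trbv17 to -1.60, Trbv19 to -0.30 and Trdv4 to -2.01; in Lipo-TriTE against PBS, Trdv4 to -2.09; in Lipo-TriTE against Lipo-BiTE, Trbv3 to -0.75, Trdv4 to -0.073 and Trgv2 to -0.49. Among the others, Trbv12-1 (-0.31) and Trbv13-3 (-0.07) turned in the first, Trbv15 (-0.31) in the second and Trbv13-1 (-0.76) and Trbv15 (-0.72) in the third, as did Trdc (-2.5) in the second. In Lipo-BiTE against PBS, leaving out single libraries gave -0.62 (without Lipo-BiTE 1) to 1.09 for Trdv4, with -0.15 without PBS 3, and -1.08 to 0.12 (without PBS 1) for Trdc. Of the V segments whose sign turned, only Trdv4, in both comparisons with PBS, passed the test when scaled by CD3. The cause was not tested.

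Mean numbers of V segments detected in PBS, Lipo-BiTE and Lipo-TriTE were 12, 27.7 and 40 at 1 count, 0.333, 6.33 and 24 at 10 counts, and 10.4, 15.2 and 16.2 in 30 reads. Mean evenness was 0.547, 0.727 and 0.790 over the 53 segments with a count, where no groups overlap, 7.71, 12.9 and 17.7 as inverse Simpson index, and 0.904, 0.846 and 0.827 with families summed. Mean reads per 100 constant reads were 4.33, 4.41 and 3.76 for Trav, 35.4, 27.1 and 28.9 for Trbv, 26.7, 54.1 and 39.7 for Trdv and 363, 47.9 and 81.7 for Trgv, where PBS 3 had 1 constant read.

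Depth limits the PBS values: 13 to 37 Trbv reads and 0 to 10 Trav reads per library leave shares, evenness and single-segment folds loosely fixed, and a segment at 0 of 77 pooled Trbv reads may hold a share of up to 4.75% (Wilson 95% bound). Single leave-outs often ended calls in the comparisons with Lipo-BiTE. Duplicated Trav segments, antisense models and the material, sorted cells or whole tumour, limit what a count stands for.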
